A study of Mus musculus with 10 samples.

Results

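Polycomb repressive complex 2 (PRC2) and the H3K27 demethylases that oppose it were followed through 10 genes: the catalytic subunits Ezh1 and Ezh2, the core subunits Eed, Suz12, Rbbp4 and Rbbp7, the accessory subunits Jarid2 and Mtf2, and the demethylases Kdm6a and Kdm6b. The members were the rows carrying these symbols, 10 of 48897 rows in each of the expression tables, and all 10 passed the filter on low values in both. RNA-seq covered 10 mouse libraries in 4 groups. Prostate epithelial cells sorted as EpCAM+ and CD45- came from C57BL/6 mice aged 3 months, with 3 libraries whose genotype names no Arid1a deletion (controls A, B and C) and 3 of genotype Arid1aPC-/- (KO-labelled A, B and C). Every mouse was genetically engineered, so the controls are not wild type, and the floxed alleles were recombined by Cre under the Probasin promoter, which is active in prostate epithelium. Myc-CaP, a Myc-driven mouse prostate cancer cell line of FVB origin, gave 2 libraries with an empty vector (EV) and 2 labelled Myc-CaP Arid1a KO, made with a lentiviral CRISPR guide. Whether the knockout cells were 1 clone or a pool is not stated in the sources used here. The study's methods give n = 3 for the mice of the sorted cells. Nothing in the labels says that same-group libraries came from separate mice or cultures, so p-values measure the spread between these libraries.

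PRC2 places methyl groups on H3K27, a mark of silent developmental genes. EZH2 or its less active paralogue EZH1 supplies the methyltransferase activity, EED and SUZ12 hold the core together, and RBBP4 and RBBP7 are histone-binding proteins that also belong to other chromatin complexes. JARID2 and MTF2 help bring the complex to its target sites, while KDM6A (UTX) and KDM6B (JMJD3) remove the mark. In the GENCODE M21 annotation of GRCm38, Rbbp7 lies on the X chromosome at chrX:162760402-162779092 and Kdm6a at chrX:18162575-18279936, while Ezh1 (chr11:101191115-101226463), Suz12 (chr11:79993106-80034123) and Kdm6b (chr11:69398508-69413675) share a chromosome. Ezh2 lies at chr6:47530139-47595341, Eed at chr7:89954654-89980983, Rbbp4 at chr4:129307100-129335370, Jarid2 at chr13:44729474-44921643 and Mtf2 at chr5:108065674-108109004. ARID1A is a subunit of the SWI/SNF chromatin remodeller, which opposes Polycomb silencing at many genes, and EZH2 is known in prostate cancer for its high expression in advanced tumours. The comparisons asked whether the transcripts of the writer and the erasers differed between libraries with and without the Arid1a deletion label.

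Arid1a itself was examined first. In the Myc-CaP table it read 60.5 and 61.0 TPM (a length-corrected share of all transcripts) in the EV libraries and 40.3 and 39.5 TPM in the KO libraries, a log2 fold change of -0.59 ± 0.06 (SE, n = 2 and 2, limma adjusted p = 0.0102). In the epithelium it read 27.8, 21.9 and 26.5 RPKM (reads scaled by gene length and library size) in the controls and 31.1, 28.8 and 30.8 RPKM in the KO-labelled libraries, 0.25 ± 0.09 on the log2 scale with an adjusted p of 0.0540. In 5 alternatives that difference passed the threshold as a rise, with adjusted p from 0.01296 to 0.0465. In the others it did not pass. It was 0.06 with the length trend removed (adjusted p = 0.482) and 0.15 without control B (adjusted p = 0.0737). The Arid1a transcript was therefore not lower in any epithelial library labelled Arid1aPC-/-, and every direction given for the epithelium is a direction between libraries so labelled. The value is summed over the whole gene and does not resolve the deleted exons. Leaving out any 1 Myc-CaP library moved the Arid1a adjusted p to between 0.0984 and 0.111.

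The epithelial libraries differed widely. Of 16275 genes tested, 57.1% were called at an adjusted p under 0.05, 27.5% higher and 29.6% lower in the KO-labelled libraries, and the groups did not overlap for 66.7%. The estimated depth was 28.8 to 36.3 in units of 1e+06 mapped reads per epithelial library. Markers of other cells moved with the label. All 7 macrophage markers were higher (summed level 2335 to 2693 RPKM in controls and 4362 to 4972 RPKM in KO-labelled libraries). So were 4 of 5 leukocyte genes and 4 of 5 B and plasma cell genes, in cells sorted as CD45-, and 1 leukocyte gene, Cd52, was lower. Ptprc, the gene of CD45, was among the leukocyte genes that rose. It read 28.6 ± 2.3 RPKM in controls and 57.3 ± 0.98 RPKM in KO-labelled libraries (SD, log2 fold change 0.98, limma adjusted p = 5.36e-05). Of 6 tested genes each, 3 neutrophil and 3 T cell markers were higher and 3 fibroblast markers lower. In 5 genes each, 1 smooth muscle gene was higher and 4 lower, and 1 endothelial gene was higher. All 8 seminal vesicle secretion genes were lower (19459 to 21963 RPKM against 647 to 1631 RPKM), as were 5 of 6 prostate luminal genes, while of 4 basal genes Krt5 and Krt14 were higher and Krt15 (-0.37) and Trp63 (-0.24) were not called, Krt15 being wholly lower. The epithelial markers were present in all 6 libraries, and of 6 tested 3 were lower in the KO-labelled libraries (Epcam -0.59, Krt19 -0.59 and Krt18 -0.37) and 0 higher, the Krt18 call being lost when libraries were scaled to the same sum (adjusted p = 0.0650). In Myc-CaP cells 6.43% of 13974 tested genes were called. There Epcam, Krt5 and Krt18 were listed at 0 in the EV libraries, and Krt8 was 0.932 ± 0.20 TPM with EV and 39.6 ± 1.0 TPM in the KO libraries, so the epithelial identity of the EV cells is not shown by these markers. Summed leukocyte markers were at most 5.49 TPM and macrophage markers at most 13.02 TPM there.

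Promoters are shown for Suz12 and Kdm6a, which rose in the epithelium, for Rbbp4, which fell, and for Ezh2, the catalytic subunit that did neither. They are the RefSeq sequences of GRCm38.p6 from 250 bases before to 50 bases after a gene start, printed 5′ to 3′ on the gene's own strand. Capitals mark an E2F-type motif (TTTCCCGC or TTTGGCGC) or an E-box (CACGTG) found by searching both strands.
Suz12 (chr11:79992856-79993155, plus strand): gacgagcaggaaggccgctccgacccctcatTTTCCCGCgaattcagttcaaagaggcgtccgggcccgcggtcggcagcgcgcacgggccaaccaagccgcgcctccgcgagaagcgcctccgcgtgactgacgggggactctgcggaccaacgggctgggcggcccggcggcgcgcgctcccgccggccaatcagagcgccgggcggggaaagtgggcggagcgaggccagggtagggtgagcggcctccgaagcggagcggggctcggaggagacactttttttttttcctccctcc
Kdm6a (chrX:18162325-18162624, plus strand): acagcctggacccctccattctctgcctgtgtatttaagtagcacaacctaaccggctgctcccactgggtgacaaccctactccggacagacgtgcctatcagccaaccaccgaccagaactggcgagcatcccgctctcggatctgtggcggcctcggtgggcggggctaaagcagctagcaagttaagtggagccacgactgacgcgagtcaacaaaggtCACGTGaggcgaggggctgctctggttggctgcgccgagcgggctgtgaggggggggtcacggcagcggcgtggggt
Rbbp4 (chr4:129335321-129335620, minus strand): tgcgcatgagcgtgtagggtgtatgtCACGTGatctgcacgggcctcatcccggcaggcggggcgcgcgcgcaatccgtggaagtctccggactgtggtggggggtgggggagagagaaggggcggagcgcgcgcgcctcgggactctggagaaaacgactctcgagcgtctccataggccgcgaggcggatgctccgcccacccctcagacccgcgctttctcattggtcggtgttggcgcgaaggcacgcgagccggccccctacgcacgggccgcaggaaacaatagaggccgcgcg
Ezh2 (chr6:47594981-47595280, minus strand): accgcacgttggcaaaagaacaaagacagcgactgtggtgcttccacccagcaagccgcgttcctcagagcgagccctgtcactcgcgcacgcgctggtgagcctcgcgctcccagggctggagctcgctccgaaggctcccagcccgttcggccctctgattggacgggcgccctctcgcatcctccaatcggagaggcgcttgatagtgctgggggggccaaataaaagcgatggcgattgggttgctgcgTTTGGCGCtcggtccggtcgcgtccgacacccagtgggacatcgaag
These windows held 41 CG dinucleotides for Suz12, 21 for Kdm6a, 39 for Rbbp4 and 31 for Ezh2. A promoter was matched for 9 of the 10 members, through 11 sequences. The exception was Kdm6b, for which no sequence was available and no motif was searched. TTTCCCGC occurred in 1.07% of 32851 mouse promoters and, among members, in that of Suz12. TTTGGCGC occurred in 0.514% and, among members, in that of Ezh2, a subunit known as an E2F target. The E-box, a site of the Myc family, was in 7.15% of promoters and in those of Kdm6a and Rbbp4, which moved in opposite directions in the epithelium. The CCAAT box was in 37.4% of promoters and in 7 members (Eed, Ezh2, Jarid2, Mtf2, Rbbp4, Rbbp7 and Suz12). A match describes letters in a window and not a bound site.

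Of the 10 members, 6 were called in the epithelium (57.1% of all tested genes were called): 4 were higher in the KO-labelled libraries (Suz12, Jarid2, Kdm6a and Kdm6b) and 2 were lower (Rbbp4 and Rbbp7), against backgrounds of 27.5% and 29.6%. The groups did not overlap for the same 6, with 32.4% of all genes wholly higher and 34.4% wholly lower in the KO-labelled libraries. Both demethylases were among those that rose, and the catalytic subunits were not called. The member median was 0.12 on the log2 scale against -0.03 over all tested genes. In bulk RNA, fewer cells of a type and less RNA per cell cannot be told apart. In Myc-CaP cells 0 of 10 members were called by limma, where the background was 6.43% (4.54% higher and 1.89% lower), and 4 (Ezh2, Rbbp4, Jarid2 and Kdm6b) had an unadjusted p under 0.05, as had 22.1% of all genes tested there.

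**Figure D1:**
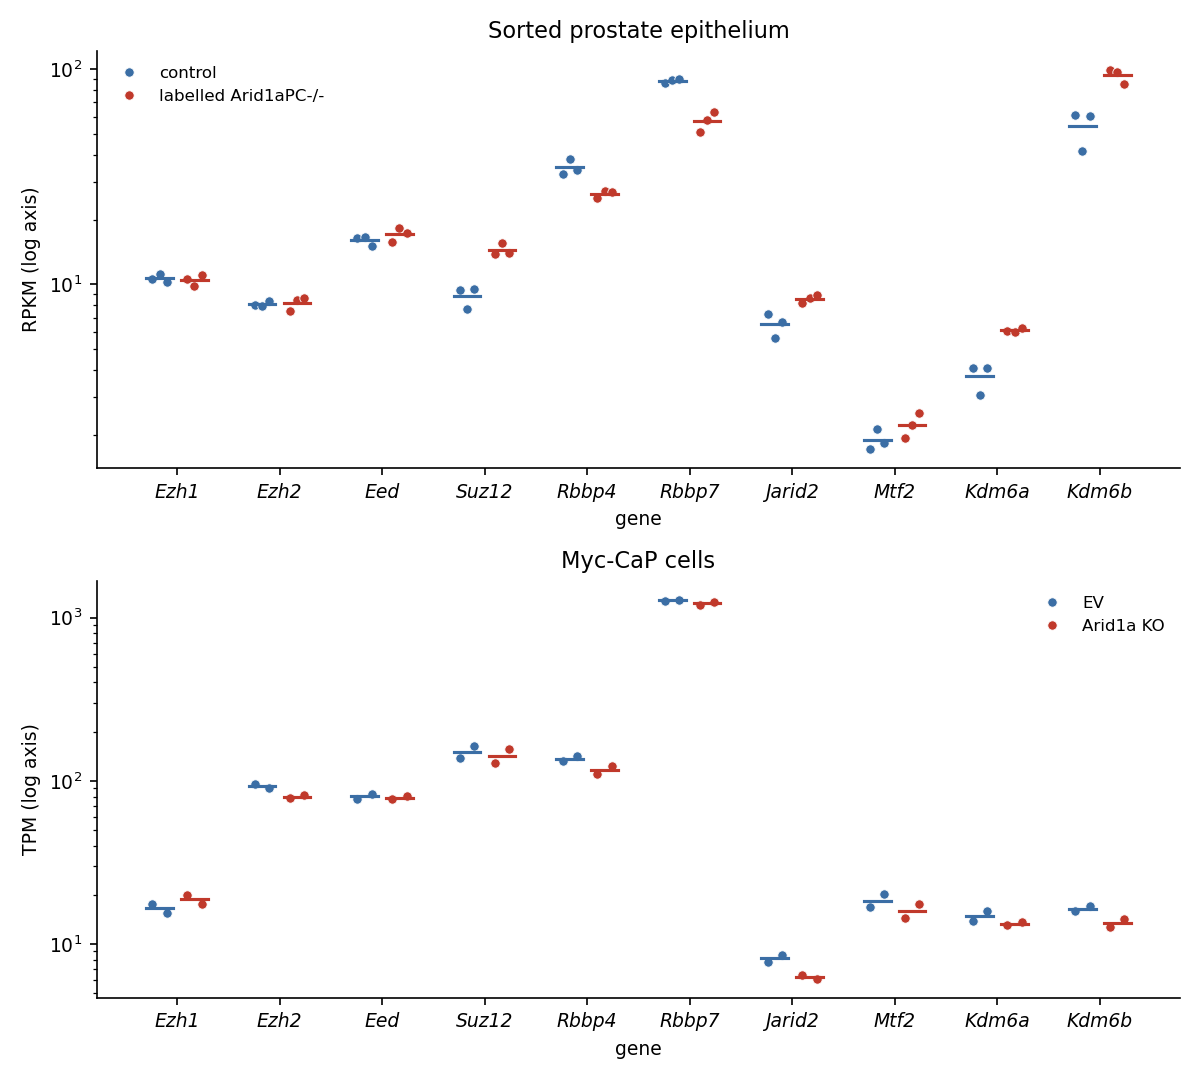
Level of each of the 10 genes in every library, on log axes, in RPKM for the sorted epithelium (top, 3 controls and 3 KO-labelled libraries) and in TPM for Myc-CaP cells (bottom, 2 EV and 2 KO). Points are libraries and bars are group means. In the epithelium the groups separate for Suz12, Rbbp4, Rbbp7, Jarid2, Kdm6a and Kdm6b and overlap for Ezh1, Ezh2, Eed and Mtf2. They separate for 66.7% of all genes tested there.

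Among the writers, Ezh1 and Ezh2 stayed close between the epithelial groups. Ezh2 was 8.03, 7.97 and 8.36 RPKM in controls A, B and C and 7.49, 8.47 and 8.65 RPKM in KO-labelled A, B and C. The KO-labelled libraries reached both below and above the controls, and the log2 difference of 0.01 (95% interval -0.16 to 0.18, limma adjusted p = 0.900) did not pass the test. Ezh1 was 10.6, 11.2 and 10.3 RPKM in the controls and 10.6, 9.87 and 11.04 RPKM in the KO-labelled libraries, a log2 difference of -0.03 (95% interval -0.19 to 0.13, adjusted p = 0.741). The groups overlapped for Ezh1 as well. Scaling all libraries to the same sum changed the sign of the Ezh1 difference and brought it to 0.13, and quantile normalization brought that of Ezh2 to the other side of 0, neither past the threshold.

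The core subunits that are not catalytic divided. Suz12, without which the complex does not form, was 9.44, 7.68 and 9.54 RPKM in the controls and 13.8, 15.6 and 13.98 RPKM in the KO-labelled libraries, which all lay above the highest control. Its log2 fold change, of value + 1, was 0.65 ± 0.09 (SE, adjusted p = 9.66e-04). Without the added 1, the mean RPKM of the KO-labelled libraries was 1.63 times the control mean. Eed, the subunit that binds the trimethylated mark, was 16.4, 16.6 and 15.1 RPKM in the controls and 15.7, 18.2 and 17.4 RPKM in the KO-labelled libraries, overlapping ranges with a log2 difference of 0.09 (95% interval -0.09 to 0.26, adjusted p = 0.354). Eed thus did not share the separation seen for Suz12, its partner in the core.

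The histone chaperones were the 2 members that fell. Rbbp7 was 86.2, 89.0 and 90.01 RPKM in the controls and 51.3, 58.3 and 63.1 RPKM in the KO-labelled libraries, a fold change of -0.62 ± 0.08 on the log2 scale (adjusted p = 6.67e-04). The lowest control stood well above the highest KO-labelled library. Rbbp4 was 32.5, 38.2 and 34.1 RPKM in the controls and 25.1, 27.1 and 26.8 RPKM in the KO-labelled libraries, -0.39 ± 0.08 on the log2 scale (adjusted p = 0.00338), again without overlap. Rbbp7 is uncertain as a gene-level value, since 42.0% of its longest transcript matched another annotated transcript on the same strand at 90% identity or more, the longest match being to Gm6382 (97.1% over 942 bases). The corresponding share was 8.24% for Rbbp4, 8.10% for Mtf2 and at most 1.30% for the other members. Annotated antisense genes overlap Ezh2, Eed, Suz12, Rbbp7, Mtf2 and Kdm6b, and the study states that counting used strand.

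The accessory subunits differed from each other. Jarid2, the subunit that links PRC2 to its chromatin targets, was 7.31, 5.65 and 6.71 RPKM in the controls and 8.21, 8.63 and 8.90 RPKM in the KO-labelled libraries, with no overlap and a log2 fold change of 0.35 ± 0.09 (adjusted p = 0.0151). With the length trend removed it was 0.19 (adjusted p = 0.0438). Mtf2, a Polycomb-like protein, was the lowest member at 1.72, 2.13 and 1.84 RPKM in the controls and 1.94, 2.23 and 2.54 RPKM in the KO-labelled libraries. Its ranges overlapped, and the log2 difference of 0.16 (95% interval -0.08 to 0.40, adjusted p = 0.219) did not pass. Mtf2 also had the thinnest support, an estimated 291 reads in 1 library.

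Both demethylases rose in the epithelium. Kdm6b, an inducible demethylase known from inflammatory macrophages, was 61.0, 41.5 and 60.4 RPKM in the controls and 99.2, 96.7 and 85.5 RPKM in the KO-labelled libraries, a log2 fold change of 0.80 ± 0.15 (adjusted p = 0.00305). Kdm6a, which also belongs to the KMT2C and KMT2D complexes, was 4.08, 3.05 and 4.10 RPKM in the controls and 6.10, 6.02 and 6.31 RPKM in the KO-labelled libraries, 0.60 ± 0.10 on the log2 scale (adjusted p = 0.00208). Neither gene overlapped between groups. The 7 macrophage markers were higher in the same libraries, and their part in the Kdm6b difference was not tested.

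**Figure D2:**
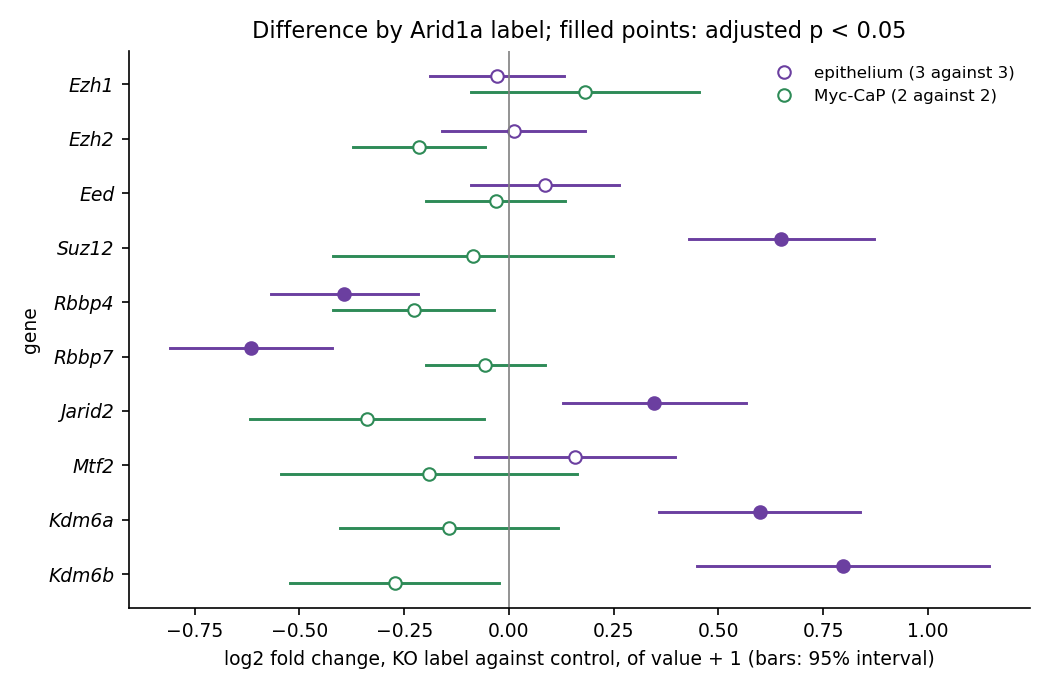
Log2 fold change of each member between libraries with and without the Arid1a KO label, in the epithelium (purple, 3 against 3) and in Myc-CaP cells (green, 2 against 2), of value + 1, with 95% intervals as bars. Filled points passed an adjusted p of 0.05: 6 members in the epithelium and 0 in Myc-CaP cells. Of all tested genes, 57.1% passed in the epithelium and 6.43% in Myc-CaP cells.

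Control library B stood apart from controls A and C for several of these genes. It was the lowest control for Suz12, Jarid2, Kdm6a and Kdm6b and for Arid1a, and the highest for Rbbp4. Without it the log2 fold changes were 0.56 for Suz12, 0.26 for Jarid2, 0.49 for Kdm6a, 0.62 for Kdm6b, -0.33 for Rbbp4 and -0.61 for Rbbp7, and all 6 passed the test. The columns did not sum to the same total, 441646 to 473331 RPKM in the controls and 397999 to 403031 RPKM in the KO-labelled libraries. Scaling them to the same sum moved the median of all genes by 0.14 on the log2 scale and the share of calls that were higher from 48.1% to 64.9%. On that scale Rbbp4 and Rbbp7 still fell (-0.22 and -0.44), and Eed (0.25, adjusted p = 0.0237) and Mtf2 (0.28, adjusted p = 0.0449) joined the 4 that rose.

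The order of the members by length-corrected level differed between groups in the epithelium. In the controls Rbbp7 was highest, followed by Kdm6b, Rbbp4, Eed, Ezh1, Suz12, Ezh2, Jarid2, Kdm6a and Mtf2, and of these neighbours Suz12 and Ezh2 overlapped. In the KO-labelled libraries Kdm6b led ahead of Rbbp7, Suz12 stood above Ezh1, and Jarid2 and Ezh2 overlapped. In Myc-CaP cells Rbbp7 led in both groups, followed by Suz12, Rbbp4, Ezh2 and Eed, and the other 5 members lay between 6.12 and 20.1 TPM. There Suz12 overlapped Rbbp4 among the EV libraries, and Mtf2, Ezh1, Kdm6b and Kdm6a formed a run of overlapping neighbours. RPKM and TPM tables were normalized separately, so levels were not tested across them.

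In Myc-CaP cells every member but Ezh1 had a negative difference, and none passed the adjusted test. Ezh2 was 95.2 and 90.5 TPM with EV and 77.9 and 81.8 TPM in the KO libraries, a log2 difference of -0.21 ± 0.06 (SE, n = 2 and 2, adjusted p = 0.126). Ezh1 was 17.5 and 15.5 TPM with EV and 20.1 and 17.7 TPM in the KO libraries, 0.18 ± 0.11 on the log2 scale (adjusted p = 0.401). For these catalytic subunits the groups did not overlap, which was so for 51.5% of all genes in this table. In all, 1 member was wholly higher (background 24.9%) and 6 wholly lower (background 26.6%) in the KO libraries.

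The non-catalytic core subunits did not pass either. Rbbp4 was 132 and 141 TPM with EV and 111 and 123 TPM in the KO libraries, without overlap and with a log2 difference of -0.23 (adjusted p = 0.168). Rbbp7 was 1259 and 1287 TPM with EV and 1201 and 1249 TPM in the KO libraries (-0.06, adjusted p = 0.618). The latter gap was small, and the interval of -0.20 to 0.09 included 0. Suz12 was 138 and 163 TPM with EV and 128 and 156 TPM in the KO libraries (-0.09, 95% interval -0.42 to 0.25), and Eed was 77.4 and 83.1 against 76.8 and 80.1 TPM (-0.03, 95% interval -0.20 to 0.13). Both overlapped.

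Among the accessory subunits and erasers, Jarid2 was 7.79 and 8.62 TPM with EV and 6.44 and 6.12 TPM in the KO libraries (-0.34, 95% interval -0.62 to -0.06, adjusted p = 0.162). Mtf2 was 16.7 and 20.1 against 14.5 and 17.6 TPM, overlapping ranges (-0.19, 95% interval -0.54 to 0.16). Both demethylases sat lower in each KO library than in either EV library. Kdm6b was 15.9 and 17.1 TPM with EV and 12.7 and 14.2 TPM in the KO libraries (-0.27, 95% interval -0.52 to -0.02, adjusted p = 0.194), and Kdm6a was 13.8 and 15.9 against 13.04 and 13.7 TPM (-0.14, 95% interval -0.40 to 0.12, adjusted p = 0.484). None of the members that rose in the epithelium had a positive difference in Myc-CaP cells, and the difference between the systems was not tested.

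Ratios within a library show balances that scaling to a total does not touch. The Ezh2/Ezh1 ratio was 0.759 ± 0.05 in control and 0.784 ± 0.07 in KO-labelled epithelium (SD, n = 3 each, two-sided exact permutation p = 0.8). It was 5.43 and 5.82 in the EV and 3.88 and 4.63 in the KO Myc-CaP libraries, a log2 difference of -0.41 whose exact permutation p of 0.3333 is the smallest that 2 against 2 allow. Ezh1 was thus the more abundant catalytic subunit transcript in sorted epithelium, and Ezh2 in the cell line.

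For the erasers, Kdm6b/Kdm6a was 14.4 ± 0.73 in control and 15.3 ± 1.5 in KO-labelled epithelium (exact permutation p = 0.5), and 1.11 and 1.01 on average in EV and KO Myc-CaP cells. Rbbp4/Rbbp7 was 0.395 ± 0.03 and 0.460 ± 0.03 in the epithelium (exact permutation p = 0.2). In Myc-CaP cells it was 0.107 with EV and 0.0952 in the KO libraries.

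Ezh2 usually follows proliferation, and its ratio to the proliferation marker Mki67 was the one that separated the epithelial groups. Ezh2/Mki67 was 1.82, 1.84 and 1.75 in the controls and 0.758, 0.841 and 0.916 in the KO-labelled libraries, a log2 difference of -1.11 with an exact permutation p of 0.1, the smallest that 3 against 3 allow. Ezh2 itself did not pass the test, and Mki67 rose from 4.502 ± 0.24 to 9.81 ± 0.32 RPKM (log2 fold change 0.97, adjusted p = 4.66e-05). In Myc-CaP cells the ratio was 0.530 and 0.450 with EV and 0.526 and 0.499 in the KO libraries, and the ranges overlapped. These 4 ratios gave 8 comparisons, with Benjamini-Hochberg adjusted p of at least 0.533.

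**Figure D3:**
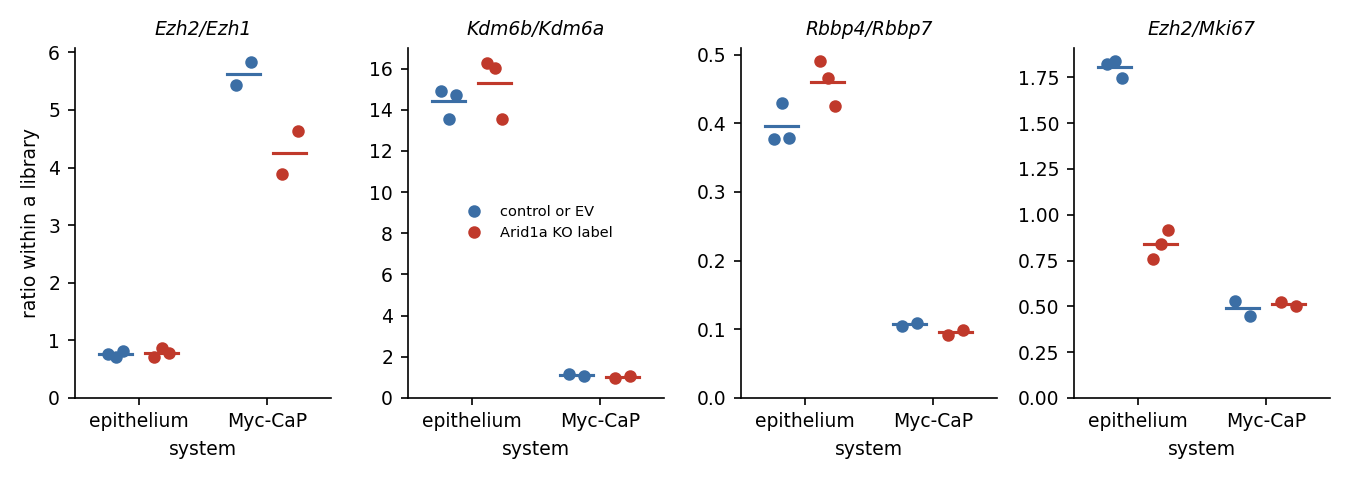
Ratios of Ezh2 to Ezh1, Kdm6b to Kdm6a, Rbbp4 to Rbbp7 and Ezh2 to Mki67 within each library, on linear axes from 0. Points are libraries and bars are group means, blue for controls or EV and red for the Arid1a KO label. Ezh2/Mki67 separates in the epithelium, at 1.75 to 1.84 in controls and 0.758 to 0.916 in KO-labelled libraries.

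Of 7 other accessory subunits of PRC2, 6 were tested in the epithelium, 2 were higher and 2 lower, against backgrounds of 27.5% and 29.6%, with a median of -0.05 (all genes -0.03). Aebp2, a Jarid2 partner in the same PRC2 subtype, rose from 7.96 ± 0.50 to 13.9 ± 0.45 RPKM (0.74, adjusted p = 1.27e-04), and Lcor rose by 0.32. The Polycomb-like genes Phf1 and Phf19, relatives of Mtf2, fell by 0.32 and 0.30 on the log2 scale, and neither call held when the libraries were scaled to the same sum. The Phf1 call was also lost without control B, KO-labelled A or KO-labelled C, with adjusted p from 0.0568 to 0.0806. That of Phf19 was lost without control A, control C, KO-labelled A or KO-labelled B, from 0.0532 to 0.0947. Ezhip, an inhibitor of PRC2 (AU022751 in the files), was listed at 0 in all epithelial libraries. In Myc-CaP cells 4 of the 7 were tested and 0 were called (median -0.07), against a background of 6.43%.

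PRC1, the sister complex whose CBX proteins bind the PRC2 mark, held 22 genes, of which 4 were higher and 9 lower in KO-labelled epithelium, against backgrounds of 27.5% and 29.6% (median -0.05, all genes -0.03). The CBX genes led the fall. Cbx6 went from 68.1 ± 3.8 to 33.9 ± 3.3 RPKM (-0.99, adjusted p = 8.87e-05), Cbx7 from 7.54 ± 0.46 to 3.99 ± 0.44 RPKM (-0.78) and Cbx8 from 4.001 ± 0.17 to 2.15 ± 0.48 RPKM (-0.68). The PCGF subunits Pcgf3 (0.63), Bmi1 (0.42) and Pcgf5 (0.29) rose, the last of these losing its call with the length trend removed (adjusted p = 0.358) and without KO-labelled B (0.0522). In Myc-CaP cells 0 PRC1 genes were higher and 2 were lower, against backgrounds of 4.54% and 1.89%. The 2 were Yaf2 (-0.65, adjusted p = 0.0124) and Cbx8 (-0.51, adjusted p = 0.0438). Neither of these calls held when any 1 Myc-CaP library was left out, with adjusted p from 0.0867 for Yaf2 and from 0.214 for Cbx8.

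Other histone modifiers of the epithelium leaned upward. In PR-DUB, which removes the PRC1 mark from H2A, 4 of 5 tested genes were higher and 0 lower (median 0.27), including Foxk1 (0.56), Asxl2 (0.52, and 0.27 with the length trend removed) and Asxl1 (0.27). The Asxl1 call was lost with the length trend removed (adjusted p = 0.0558) and without control C, KO-labelled A or KO-labelled C (adjusted p 0.0536 to 0.0655). Among the KMT2C/D complex genes and the acetyltransferases that make H3K27ac, 5 of 7 were higher and 1 lower (median 0.43), with Ep300 at 0.68, Kmt2d at 0.64, Crebbp at 0.45 and Pagr1a at -0.40. With the length trend removed, the calls of this list went from 6 to 4, Ep300 to 0.45, Kmt2d to 0.36, Crebbp to 0.23 and Pagr1a, no longer called, to -0.14 (adjusted p = 0.139). Of 13 other H3 demethylases, 9 were higher and 1 lower (median 0.27), led by Jmjd1c (0.91), Kdm7a (0.80) and Kdm3b (0.52), with Kdm4b at -0.32. The Kdm4b call was lost when libraries were scaled to the same sum (-0.16, adjusted p = 0.157), and Kdm3b was 0.30 with the length trend removed. Of 13 other H3 methyltransferases, 10 were higher and 0 lower (median 0.40), led by Dot1l, the H3K79 enzyme, from 16.7 ± 1.8 to 35.1 ± 2.1 RPKM (1.03, adjusted p = 1.06e-04), Nsd3 (0.62, and 0.37 with the length trend removed) and Nsd2 (0.61, and 0.35). With the background at 27.5% higher, the rise of Kdm6a and Kdm6b stood among rises of many other chromatin enzymes. In Myc-CaP cells 0 genes of these 4 lists were called, against a background of 6.43%.

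**Figure D4:**
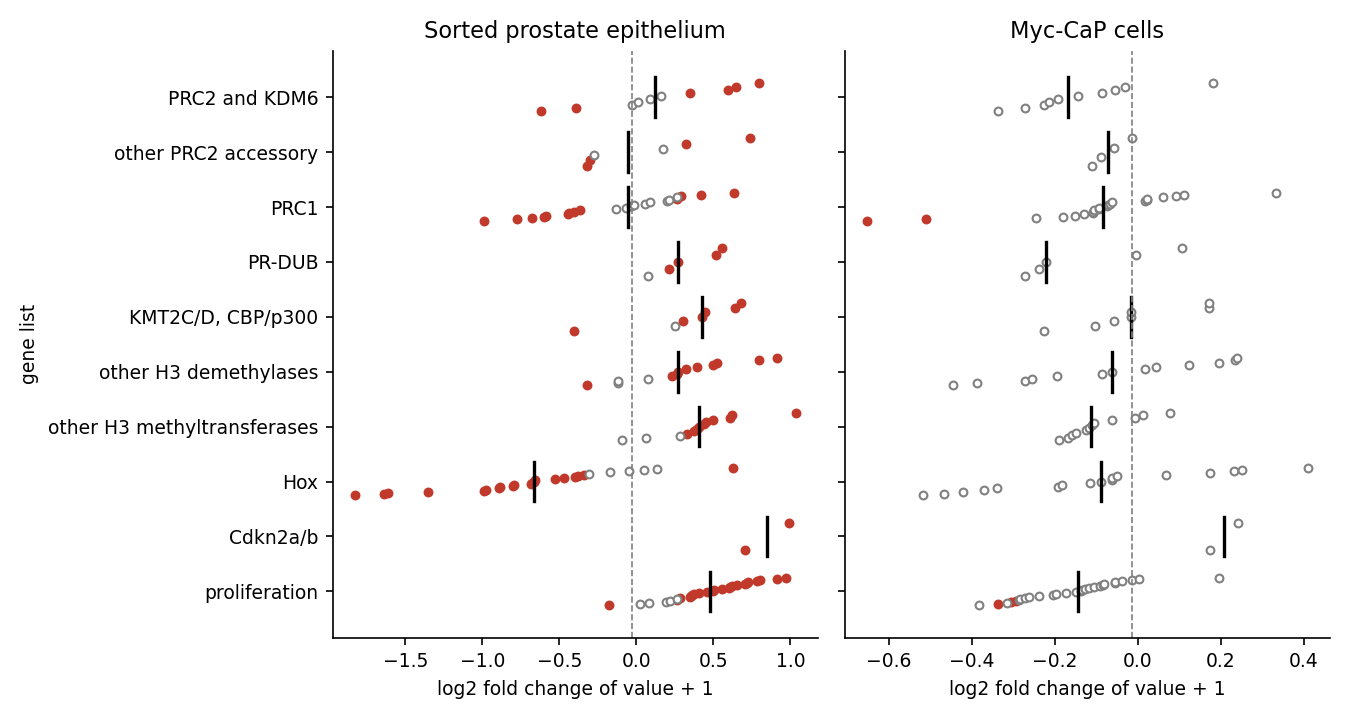
Log2 fold changes (of value + 1) of the genes tested in each list, in the epithelium (left) and in Myc-CaP cells (right). Red points passed an adjusted p of 0.05, open points did not, black bars are list medians and the dashed line is the median of all tested genes (-0.03 and -0.01). The horizontal scales differ between the panels.

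The Hox clusters, the textbook targets of PRC2, were lower in KO-labelled epithelium. Of 39 Hox genes 25 were tested, 1 was higher and 19 lower, against backgrounds of 27.5% and 29.6%. Their median was -0.66 (all genes -0.03). The largest falls were at the 5′ end of the Hoxb cluster. Hoxb13, a prostate lineage factor, went from 65.3 ± 5.9 to 18.2 ± 5.9 RPKM (-1.83, adjusted p = 2.10e-04), Hoxb9 from 11.2 ± 0.99 to 2.92 ± 0.44 RPKM (-1.64) and Hoxb8 from 5.51 ± 0.98 to 1.12 ± 0.18 RPKM (-1.61). Hoxa6 rose from 0.779 ± 0.29 to 1.75 ± 0.34 RPKM (0.63). All 8 tested Hoxd genes were lower, as were 7 of 9 Hoxb and 4 of 8 Hoxa genes, and no Hoxc gene passed the filter. Prostate luminal and seminal vesicle genes were lower in the same libraries, Hoxb13 itself being on the luminal list, and their part in the Hox difference was not tested. In Myc-CaP cells 17 Hox genes were tested and 0 were called (median -0.09), against a background of 6.43%.

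**Figure D5:**
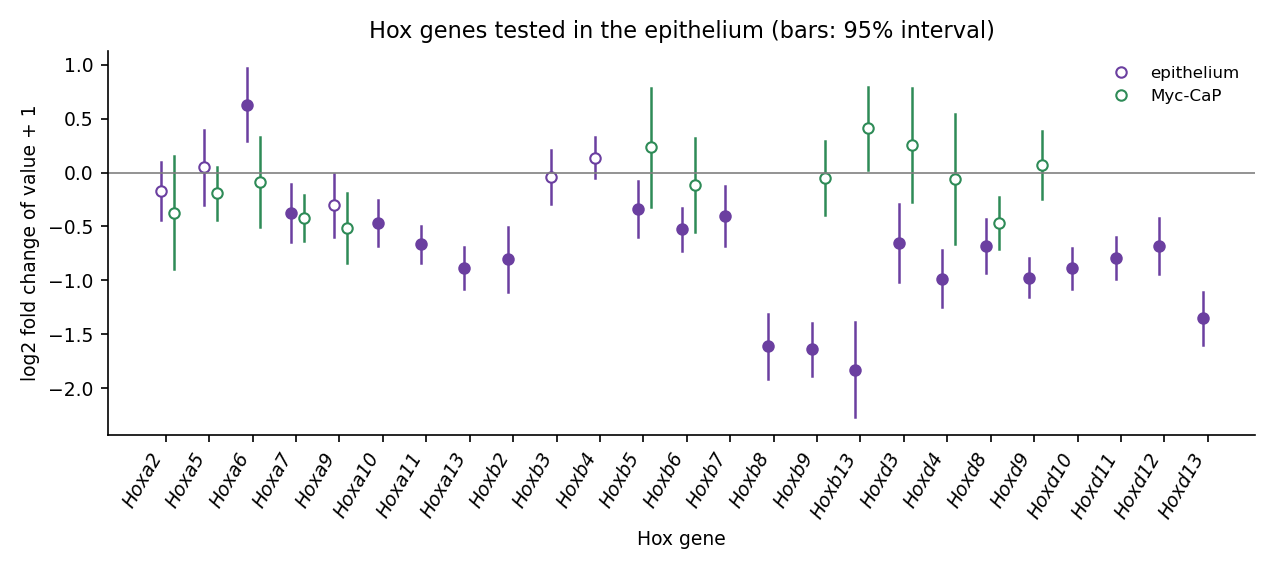
Log2 fold change (of value + 1) of the 25 Hox genes tested in the epithelium (purple) and, where tested, the same genes in Myc-CaP cells (green), in cluster order, with 95% intervals as bars. Filled points passed an adjusted p of 0.05: 19 genes below 0 and Hoxa6 above it, all in the epithelium, where 57.1% of all tested genes passed.

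The INK4 locus, another classic target silenced by Polycomb proteins in dividing cells, went the other way. Cdkn2a rose from 7.40 ± 2.0 to 15.5 ± 2.0 RPKM (0.99, adjusted p = 0.00209) and Cdkn2b from 11.1 ± 1.9 to 18.8 ± 3.2 RPKM (0.71, adjusted p = 0.00586) in the epithelium. Cdkn2a was 226 and 229 TPM with EV and 266 and 248 TPM in the KO Myc-CaP libraries (0.17, adjusted p = 0.174). Of 28 proliferation genes, 22 were higher and 1, Plk1, was lower in KO-labelled epithelium (median 0.48), with Mcm4 at 0.91 and Ccnb1 at 0.80. Over all tested genes, 27.5% were higher and 29.6% lower in the epithelium, and 4.54% higher and 1.89% lower in Myc-CaP cells. The Plk1 call was lost without any 1 library other than control B (adjusted p 0.0663 to 0.151). In Myc-CaP cells 3 of the 28 were lower, Rrm1, Plk1 and Ccnb1, and 0 were higher, and these calls were lost when any 1 library was left out.

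The genes most like Ezh2 across all 10 libraries, by the correlation of deviations from the table means over 12122 genes tested in both tables, were Rbmx (r = 0.944), Rps6ka5, Prpf18, Hnrnpa1 and Ccdc138. For Kdm6b they were Sptan1 (r = 0.994), Emp1, Tacc1, Foxm1 and a row whose symbol had become a date. The nearest named genes to Ezh1 were Arpc1b (r = 0.930), Cxcl11, Fam234a and Ubtd1. These correlations describe libraries that share groups and carry no test.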

How the data were processed

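RNA-seq of 10 libraries was used. The authors deposited RPKM per gene for the epithelium and TPM per gene for Myc-CaP cells. The study's methods name TopHat2 on GRCm38 with strand-specific HTSeq counting, whereas the submitters' processing notes name HISAT2, HTSeq, DESeq2 and mm10. Gene lengths behind the units are not given in the sources used here. Growth and treatment texts are shared by all samples, and the study also describes tumours grown from Myc-CaP cells. The labels name the cell line and do not state culture, so culture origin was assumed. The 10 per-library files matched the series tables at every value. Groups came from the genotype labels. Some items, among them an allele that all the mice share, are not reported here.

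Values were transformed to log2(value + 1), which understates changes of low genes. Genes with a table mean of at least 0.5 were tested in each table with limma 3.58.1 (trend, R 4.3.3), with 2 groups and no covariate, and p-values were Benjamini-Hochberg adjusted over all genes tested. The same fit was tested on simulated data. Ratios were compared by two-sided exact permutation (scipy 1.17.1). Depth was estimated from the steps between low RPKM values with GENCODE M21 lengths. TPM keeps no depth, so no total is given for Myc-CaP cells. Reads per member were estimated there from the same kind of steps between low TPM values. Sequence similarity came from BLAST 2.17.0. Nsd2, Nsd3, Epop and Ezhip were matched through older symbols. In each list outside the members, the up to 3 genes with the largest called change in each direction were named. Members and lists were chosen with earlier results of these data known. Alternatives covered the pseudocount, the filter, scaling, quantile normalization, removal of a length trend, the variance trend, a replicate block and each library left out.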

Additional observations from a re-analysis of the deposited data

Results flagged for a closer look

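For 16 of 56 genes reported here and tested in both tables, every KO-labelled library moved one way from the controls in the epithelium and every KO library the opposite way from EV in Myc-CaP cells. The difference between the systems was not tested for any of them, and the 2 tables hold different units. Of all 12122 genes tested in both, 19.2% showed such an opposite pattern (9.43% higher in epithelium and 9.81% lower). Most of the 56 were named because they had been called in 1 of the systems, so their share cannot be compared with that of all genes. Among the members, the log2 fold changes in epithelium and Myc-CaP cells were 0.35 and -0.34 for Jarid2, 0.60 and -0.14 for Kdm6a, and 0.80 and -0.27 for Kdm6b. The targeted gene Arid1a showed 0.25 and -0.59. Among the PR-DUB genes, Foxk1 showed 0.56 and -0.22, Asxl2 0.52 and -0.24, and Asxl1 0.27 and -0.27. Among methyltransferases, Kmt2d showed 0.64 and -0.06 and Dot1l 1.03 and -0.19. Lower in epithelium and higher in Myc-CaP cells were Hoxb13 (-1.83 and 0.41), Krt19 (-0.59 and 1.89) and Krt15 (-0.37 and 1.46). The proliferation genes showed 0.97 and -0.29 for Mki67, 0.91 and -0.08 for Mcm4, 0.80 and -0.29 for Ccnb1, and 0.72 and -0.34 for Rrm1.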

How the results depend on the processing

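The 6 epithelial member calls held their direction and significance in every alternative that tested them. A minimum mean of 5 left Kdm6a and Mtf2 untested, and the count was then 5 of 8. Of all 9027 genes tested at that setting, 5872 were called. Ezh1 moved to 0.135 when libraries were scaled to the same sum, and Ezh2 to -8.29e-05 under quantile normalization and -0.0674 with the length trend removed, and Plk1 to 0.0093 with that trend removed. With 1 library left out, the epithelial log2 differences ranged from -0.0628 to 0.0107 for Ezh1, from -0.0235 to 0.0687 for Ezh2 and from -0.0232 to 0.113 for the Ezh2/Ezh1 ratio. In Myc-CaP cells they ranged from -0.0825 to 0.0188 for Eed, from -0.228 to 0.0575 for Suz12 and from -0.0484 to 0.188 for the Ezh2/Mki67 ratio.

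Genes called in Myc-CaP cells went from 899 to 358 with no filter, 451 without the variance trend and 47 to 76 with 1 library left out. Calls over the gene lists there went from 5 to 1 with no filter, 9 with a minimum mean of 5, 8 under quantile normalization, 14 with the length trend removed, 0 without the variance trend and 0 with 1 library left out, where a lone library is assumed to vary like the others. The cause was not tested.

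Same-numbered Myc-CaP libraries deviated together (r = 0.195), but 2 pairs do not establish pairing. Same-lettered epithelial libraries did not (r = 0.04, 0.0094 and -0.06). With the replicate block, 2 of 10 Myc-CaP members were called, Ezh2 (adjusted p = 0.0376) and Rbbp4 (adjusted p = 0.0133). Of all 13974 genes tested there, 2771 were then called, with 31 calls over the gene lists. The epithelial member calls stayed at 6 of 10, where 8823 of 16275 tested genes were called. Estimated read support was thinnest for Mtf2 in the epithelium (from 291 reads) and for Jarid2 in Myc-CaP cells (from 452). With 2 libraries against 2, p-values of single ratios cannot go below 0.3333.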

Other observations

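Uty, the Y-linked paralogue of Kdm6a, was looked at after its values were seen. It was listed at 0 in all 4 Myc-CaP libraries. In the epithelium it was 1.47, 1.61 and 1.65 RPKM in the controls and 2.07, 1.90 and 2.22 RPKM in the KO-labelled libraries (limma log2 fold change 0.25, adjusted p = 0.0356, which ranged from 0.00881 to 0.384 over the alternatives). Its longest match to Kdm6a at 90% identity or more covered 77 bases. The groups did not overlap, as for Kdm6a.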
